A study of Mus musculus with 12 samples.

Results

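The comparison described here asked what blocking PD-L1 added to the transcriptome of CD4+ T cells that were already under Lag3 blockade. It set the 3 mice given both antibodies together (co-blockade, CB) against the 3 mice given anti-Lag3 alone, so 6 of the 12 samples of the series, and it was made on every mouse gene whose reads over the 12 samples came to 30 or more, which left 15138 of the 56691 genes in the table. All mice were Tg4 *Nr4a3*-Tocky IL-10 GFP animals of both sexes, described as young adults. Their CD4+ T cells carry 1 transgenic receptor for a myelin basic protein (MBP) peptide, a Timer protein under *Nr4a3* control that is first blue and then red, and a GFP reporter of IL-10. Each mouse received 4 mg/kg of the [4Y] form of the MBP peptide under the skin, the antibodies 24 h later, 0.4 mg/kg of the same peptide a further 30 min later, and gave a spleen 12 h after that. Cells positive for both the blue and the red Timer form were sorted, so only cells with recent and persisting *Nr4a3* reporter activity were sequenced, in 1 library per mouse. The comparison of anti-PD-L1 alone with the isotype pool (rat IgG1 and rat IgG2a), 3 mice each, was set beside it because it asks the same question without anti-Lag3 and shares no sample with it.

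PD-1 is an inhibitory receptor that activated T cells place on their surface, and PD-L1 is its ligand on other cells. When PD-1 is engaged it recruits phosphatases that dampen signals from the T cell receptor (TCR) and from CD28. Lag3 is another inhibitory receptor, related to CD4, that binds MHC class II. A T cell that receives a strong antigen signal leaves quiescence, grows before it divides, builds ribosomes and chaperones, and lowers receptors that would carry it out of the lymphoid organ.

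Depth was similar in both groups: reads on mouse genes ran from 18711007 to 19476710 in the anti-Lag3 samples and from 20190254 to 22010631 in the CB samples, and levels below are shares of these reads (CPM, counts scaled to a common library size, after TMM scaling). Summed markers of T cell identity (9 genes) lay between 4043.5 and 4200.8 CPM with anti-Lag3 and between 3593.3 and 3828.7 CPM in CB, with none of the 9 called. The 7 erythroid genes, mostly haemoglobins, summed to between 218.1 and 290.7 CPM with anti-Lag3 and between 152.1 and 199.7 CPM in CB, and none was called. Of the 12 B cell, 8 natural killer cell, 8 myeloid, 5 dendritic cell, 4 plasma cell, 4 platelet and 2 CD8 T cell markers tested none was called, and the summed levels of each of these lists overlapped between the groups. *Cd14*, *Xcr1*, *Mzb1* and *Gp1bb* had no read in any sample. In each group replicate 1 had reads from Y-linked genes (101.6 CPM in sum with anti-Lag3, 97.4 CPM in CB) and almost none from *Xist*, and replicates 2 and 3 the reverse. The anti-PD-L1 group was split in the same way, but in the isotype group replicates 1 and 2 had the Y-linked reads and replicate 3 those of *Xist*, so the comparison of anti-PD-L1 with isotype and the interaction are not balanced in this respect, and its part in them was not tested beyond a fit with a term for it. Samples were pooled and sorted in batches of 4, and the labels do not say whether the replicate number marks the batch. Each treatment was stained with its own CD4 fluorochrome before pooling, so fluorochrome and treatment cannot be told apart.

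Adding anti-PD-L1 to anti-Lag3 raised a group of genes led by ribosome assembly factors and lowered a group led by S100, annexin, vimentin, actin and migration genes. In edgeR's quasi-likelihood test 59 genes were higher in CB (0.39% of those tested) and 46 were lower (0.304%), at an adjusted p below 0.05. At an unadjusted p below 0.05 there were 1432. The median log2 fold change was 0.61 among the 59 and -0.79 among the 46, and 50 and 37 of them changed by less than 2-fold. Every CB sample lay above every anti-Lag3 sample for 1162 genes (7.68%) and below for 1074 (7.09%). Of the 105 called genes 104 showed such a separation, and the exception was *Ncl*. The count depended on single mice: without CB replicate 1 or 3 there were 45 and 44 called genes, and without anti-Lag3 replicate 2 or 3 there were 53 and 45. With a term for whether a sample read *Xist* or the Y-linked genes, added after the data were seen, 180 were called (96 higher and 84 lower). All 105 kept their direction in each of the 25 other analyses run, and 28 (14 higher and 14 lower) stayed past the threshold in all of them.

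**Figure D1:**
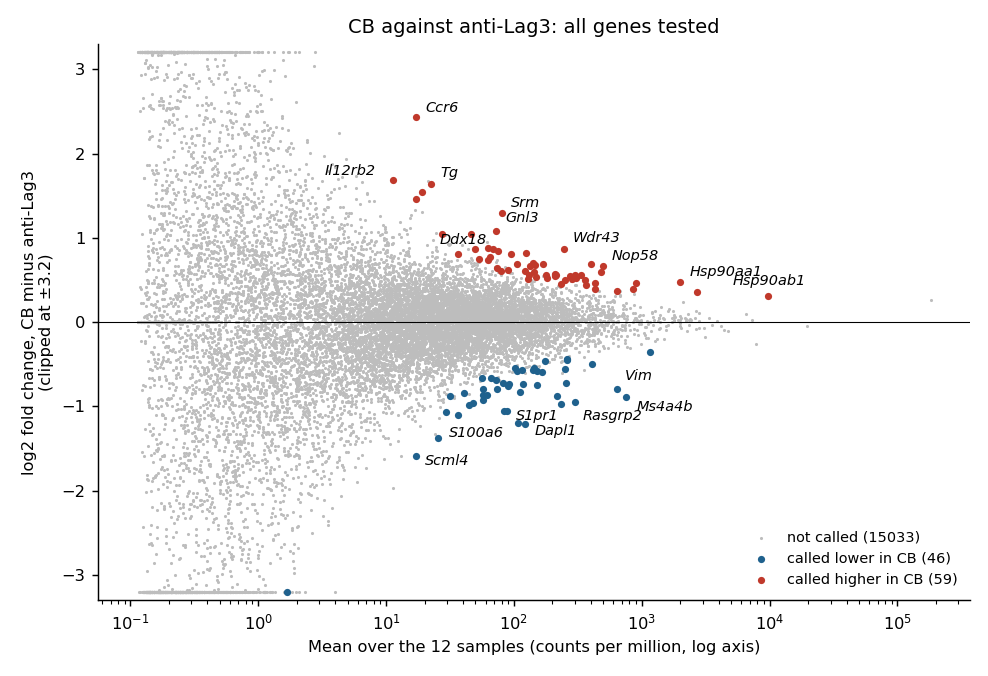
Log2 fold change of CB against anti-Lag3 (y axis) by mean level over the 12 samples in CPM (x axis, log scale), 1 point per gene. The 59 red points are genes called higher in CB and the 46 blue points genes called lower, most of them within 1 log2 unit of 0, and *Ccr6* is the highest called point.

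**Figure D2:**
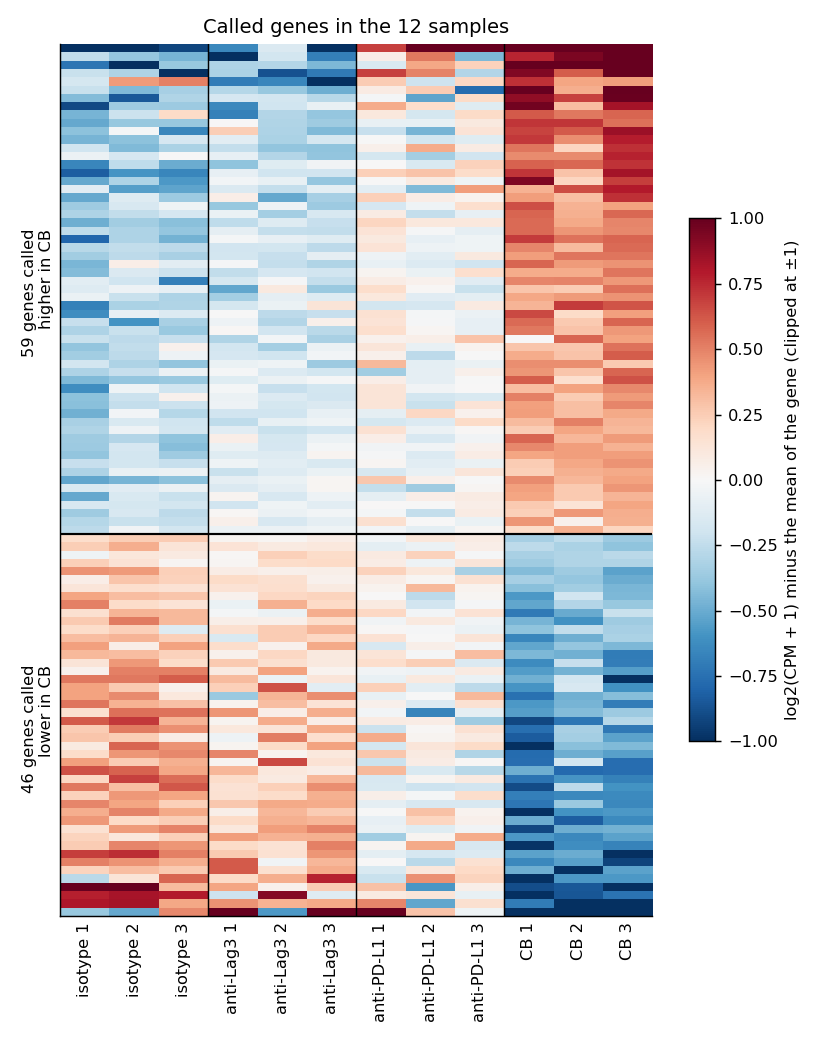
Each row is 1 of the 105 called genes and each column 1 of the 12 samples, and colour gives log2(CPM + 1) minus the mean of the gene. The 3 CB columns are mostly red in the upper block of 59 genes and blue in the lower block of 46, and the anti-PD-L1 columns are mostly paler.

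The largest group that rose was the machinery that makes ribosomes. Box C/D and H/ACA small nucleolar ribonucleoproteins (snoRNPs) modify ribosomal RNA, and large sets of further factors cut it and fold it into the small and the large subunit. Of 102 tested members of the lists for RNA polymerase I, snoRNP proteins, small subunit assembly and large subunit assembly, 16 rose and none fell. The 16 were 15.69% of the members, against 0.39% of all genes. Of the 102, 99 had a fold change above 0. In 54 of the 102 (52.9%, against 7.68% of all genes) every CB sample was above every anti-Lag3 sample. The summed level of the 102 was 10240.6, 9108.5 and 9482.0 CPM in the anti-Lag3 samples and 13228.0, 11917.6 and 12929.3 CPM in the CB samples, which do not overlap. By list, 4 of 11 snoRNP proteins rose (median log2 fold change 0.51), 9 of 42 large subunit factors (0.48), 2 of 36 small subunit factors (0.36) and 1 of 13 genes of RNA polymerase I (0.35), where the median over all genes tested was 0.

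The start-site windows of the 3 called genes of these lists with the smallest adjusted p, and of the called lower gene with the smallest, are printed here to place the genes and to let their sequences be compared. They are RefSeq windows of GRCm38.p6 from 250 bases before to 50 bases after the transcript start, on the strand of the gene, which is the forward strand for all 4. *Nop58* lies at chr1:59684756-59685055, *Wdr43* at chr17:71615965-71616264, *Dkc1* at chrX:75095604-75095903 and *Ms4a4b* at chr19:11443308-11443607. Capitals mark any match, on either strand, to CACGTG (the E-box bound by MYC and its relatives), TGANTCA (the AP-1 site), GGAAAA (the core of NFAT sites) or CCGGAAG (an ETS site).
Nop58: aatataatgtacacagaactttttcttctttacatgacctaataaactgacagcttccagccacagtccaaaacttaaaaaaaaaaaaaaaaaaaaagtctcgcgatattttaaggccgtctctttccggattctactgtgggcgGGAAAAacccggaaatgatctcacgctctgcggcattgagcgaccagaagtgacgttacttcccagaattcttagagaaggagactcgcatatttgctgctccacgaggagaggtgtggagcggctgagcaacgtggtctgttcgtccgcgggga
Wdr43: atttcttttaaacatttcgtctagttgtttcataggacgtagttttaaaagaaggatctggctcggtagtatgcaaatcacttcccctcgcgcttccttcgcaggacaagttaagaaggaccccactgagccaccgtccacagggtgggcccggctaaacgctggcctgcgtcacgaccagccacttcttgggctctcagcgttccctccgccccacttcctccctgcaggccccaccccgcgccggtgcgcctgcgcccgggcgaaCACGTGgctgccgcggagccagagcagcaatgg
Dkc1: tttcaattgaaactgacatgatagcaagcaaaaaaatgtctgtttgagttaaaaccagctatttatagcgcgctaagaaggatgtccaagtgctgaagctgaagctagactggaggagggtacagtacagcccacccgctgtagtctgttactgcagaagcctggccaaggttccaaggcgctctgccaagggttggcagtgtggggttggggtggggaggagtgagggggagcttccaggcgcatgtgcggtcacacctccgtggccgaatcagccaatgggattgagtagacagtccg
Ms4a4b: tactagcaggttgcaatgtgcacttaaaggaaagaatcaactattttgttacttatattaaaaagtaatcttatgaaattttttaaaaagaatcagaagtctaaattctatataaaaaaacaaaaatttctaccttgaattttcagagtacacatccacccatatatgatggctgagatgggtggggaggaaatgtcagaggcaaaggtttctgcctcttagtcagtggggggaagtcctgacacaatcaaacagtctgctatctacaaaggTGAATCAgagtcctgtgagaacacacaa
The window of *Wdr43* held 1 CACGTG just past the start, that of *Nop58* 1 GGAAAA, that of *Ms4a4b* 1 TGANTCA, and that of *Dkc1* none of the 4. Windows were found for 79 of the 105 called genes. CACGTG was present in 12 of the 52 windows of called higher genes (23.1%), in 2 of the 38 windows of called lower genes (5.26%), in 9.9% of the windows of all tested genes and in 7.15% of all windows. The shares for the same 4 sets were 1.92%, 7.89%, 5.05% and 7.81% for TGANTCA, 11.5%, 21.1%, 20.7% and 23.4% for GGAAAA, and 19.2%, 5.26%, 17.9% and 8.86% for CCGGAAG. These are matches of letters and not binding sites.

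*Nop58* (ENSMUSG00000026020), a core protein of box C/D snoRNPs, was at 427, 414 and 456 CPM with anti-Lag3 and at 650, 706 and 705 CPM in CB. Its 2 groups were well apart, with a log2 fold change of 0.67 (SE 0.09, adjusted p = 0.000126). *Dkc1*, the pseudouridine synthase of the H/ACA class, went from 365, 330 and 328 CPM to 577, 528 and 544 CPM (0.69, SE 0.09). *Nolc1*, a chaperone of snoRNPs, rose by 0.69 and *Nop56*, the partner of *Nop58*, by 0.51 on the log2 scale.

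*Wdr43*, part of the complex that first packs the small subunit precursor, was at 219, 189 and 208 CPM with anti-Lag3 and at 386, 327 and 408 CPM in CB (log2 fold change 0.86, SE 0.11, adjusted p = 0.000126). *Bms1*, a GTPase of small subunit assembly, rose by 0.68. Among large subunit factors *Gnl3* (nucleostemin, a nucleolar GTPase, chromosome 14 from 31012433 to 31019152) rose 2.11-fold, with 59.9, 59.4 and 55.6 CPM against 126, 109 and 135 CPM. *Nop2*, an RNA methyltransferase, rose 1.84-fold, *Ddx18*, an RNA helicase, 1.79-fold, *Gtpbp4*, a GTPase, 1.62-fold, *Ppan* 2.06-fold and *Mrto4* 1.53-fold. *Rsl1d1*, *Mybbp1a* and *Pelp1* completed the 9, with log2 fold changes of 0.56, 0.57 and 0.64. *Rrn3*, which brings RNA polymerase I to the ribosomal DNA promoter, was at 54.4, 36.2 and 41.1 CPM with anti-Lag3 and at 69.7, 64.4 and 86.8 CPM in CB. The calls of *Nop58*, *Dkc1*, *Nolc1*, *Wdr43*, *Bms1*, *Gnl3*, *Nop2*, *Ddx18* and *Gtpbp4* were made in all 25 other analyses, whereas those of *Nop56* and *Mrto4* were lost in 9. Those of *Ppan* and *Pelp1* were lost in 8, those of *Rrn3* and *Mybbp1a* in 7 and that of *Rsl1d1* in 5. *Gnl3*, *Dkc1* and *Nop56* share exon bases with a gene on the other strand (*Pbrm1*, *Mpp1* and *Idh3b*), and since the strand setting of the counting is not given in the sources used here the reads of such pairs may be mixed. The partners differed by -0.16, -0.51 and -0.00 and were not called.

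**Figure D3:**
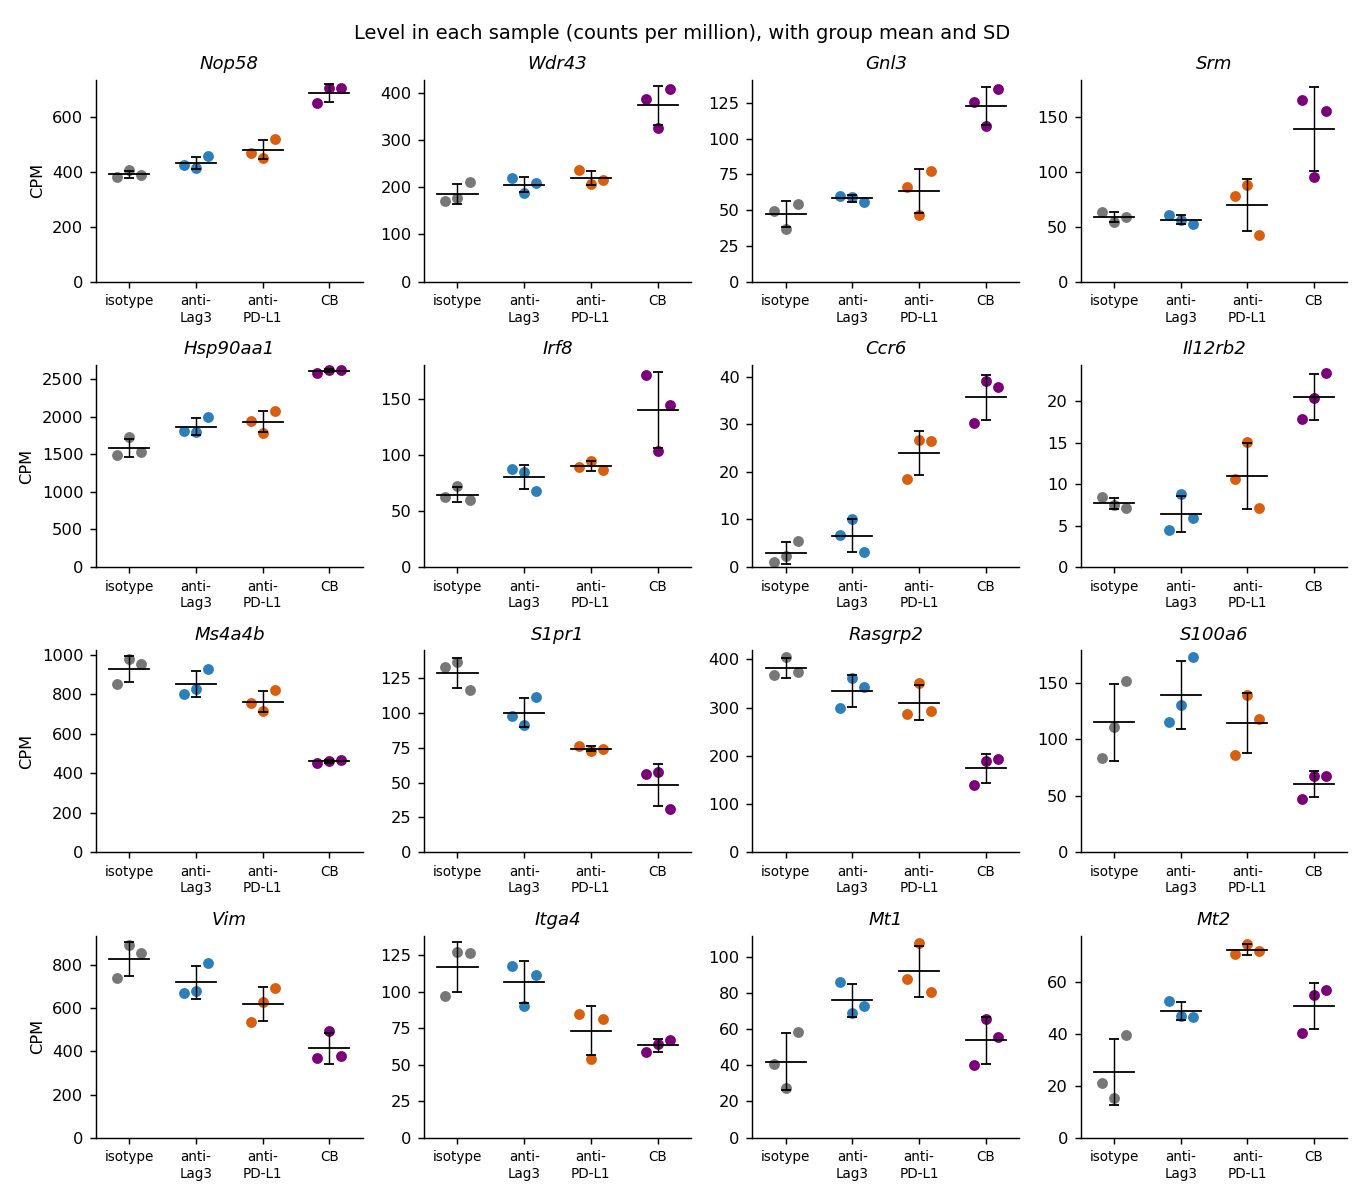
CPM of 16 genes in each sample (points), by treatment group, with the group mean (bar) and SD over 3 mice (whiskers), each axis from 0. The CB points do not overlap the anti-Lag3 points in any panel but that of *Mt2*, and in those of *Mt1* and *Mt2* anti-PD-L1 has the highest mean.

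Genes that serve the finished ribosome moved less or not detectably. Of 81 genes for cytosolic ribosomal proteins none was called, their median log2 fold change was 0.02, and their summed level was 105732.8, 103291.9 and 107578.2 CPM with anti-Lag3 against 106328.4, 109886.0 and 107888.5 CPM in CB. *Rplp1* and *Rps20*, the members with the highest level, differed by 0.10 (SE 0.06) and -0.04 (SE 0.05). Of 45 translation initiation factors 6 rose (13.33%, against 0.39% of all genes) and none fell. *Eif3a*, the largest subunit of the factor that loads the small subunit onto messenger RNA, was at 770, 820 and 859 CPM with anti-Lag3 and at 1060.3, 1145.7 and 1166.0 CPM in CB. *Metap2*, which protects eIF2 and removes the first methionine, rose by 0.47, *Eif5* by 0.45, *Eif3j1* by 0.60, *Eif2s2* by 0.39 and *Eif5b* by 0.37. The call of *Eif5b* (adjusted p = 0.049) was lost in 13 of the 25 other analyses. Those of *Eif5* and *Eif2s2* were lost in 8, that of *Eif3j1* in 7, that of *Metap2* in 5 and that of *Eif3a* in 4. None of 22 aminoacyl-tRNA synthetase genes was called, although 21 had a fold change above 0. In 10 (45.45%, against 7.68% of all genes) the CB samples were all above. *Eprs* and *Kars*, with the highest levels, differed by 0.29 and 0.10. The noncoding host genes of snoRNAs, in contrast, did not move less than the ribosome assembly lists. Over 14 tested genes their median log2 fold change was 0.57, and 12 had a fold change above 0. In 8 (57.14%, against 7.68% of all genes) every CB sample was above every anti-Lag3 sample. Only *Snhg1* was called (247, 258 and 266 CPM with anti-Lag3 against 409, 302 and 418 CPM in CB).

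Chaperones and other growth genes rose with them. *Hsp90aa1*, the inducible cytosolic HSP90, was at 1809.3, 1798.5 and 2001.5 CPM with anti-Lag3 and at 2586.5, 2623.3 and 2618.9 CPM in CB (log2 fold change 0.48, SE 0.07, adjusted p = 0.000639). *Hsp90ab1*, its constitutive relative, rose by 0.31, and *Hsph1*, an HSP110 that helps HSP70 exchange its nucleotide, by 0.55. These were the 3 called of 27 heat shock chaperones (11.11%, against 0.39% of all genes). The call of *Hsph1* was lost in 9 of the other analyses, that of *Hsp90ab1* in 4 and that of *Hsp90aa1* in none. None of the 8 subunits of the TRiC chaperonin was called (*Cct7* 0.11, *Cct8* 0.08). *Srm*, which makes spermidine and is a known MYC target, was at 60.6, 56.6 and 52.5 CPM with anti-Lag3 and at 166, 95.3 and 156 CPM in CB, a 2.46-fold rise, and was the only called gene of 12 in polyamine metabolism. *Mrpl47* and *Mrpl12* rose by 1.04 and 0.52 among 77 mitochondrial ribosomal protein genes (median 0.15), *Mrpl47* sharing exon bases with *Ndufb5* and *Actl6a* on the other strand. The call of *Mrpl12* was lost in 8 of the other analyses and that of *Mrpl47* in none. *Psmd7*, a lid subunit of the proteasome, rose by 0.50 as 1 of 33. *Hk2*, the inducible hexokinase that starts glycolysis, was at 55.4, 37.5 and 34.1 CPM with anti-Lag3 and at 75.1, 71.6 and 85.1 CPM in CB (adjusted p = 0.0428). It was the only called gene of 23 in glycolysis and lactate export. The call of *Hk2* was lost in 8 of the other analyses and that of *Psmd7* in 4. *Aldoa*, the glycolytic aldolase, was at 619, 564 and 607 CPM against 779, 760 and 733 CPM and did not pass in this fit (adjusted p = 0.0618). *Hif1a*, the hypoxia factor that drives glycolytic genes, differed by 0.29 (adjusted p = 0.354).

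**Figure D4:**
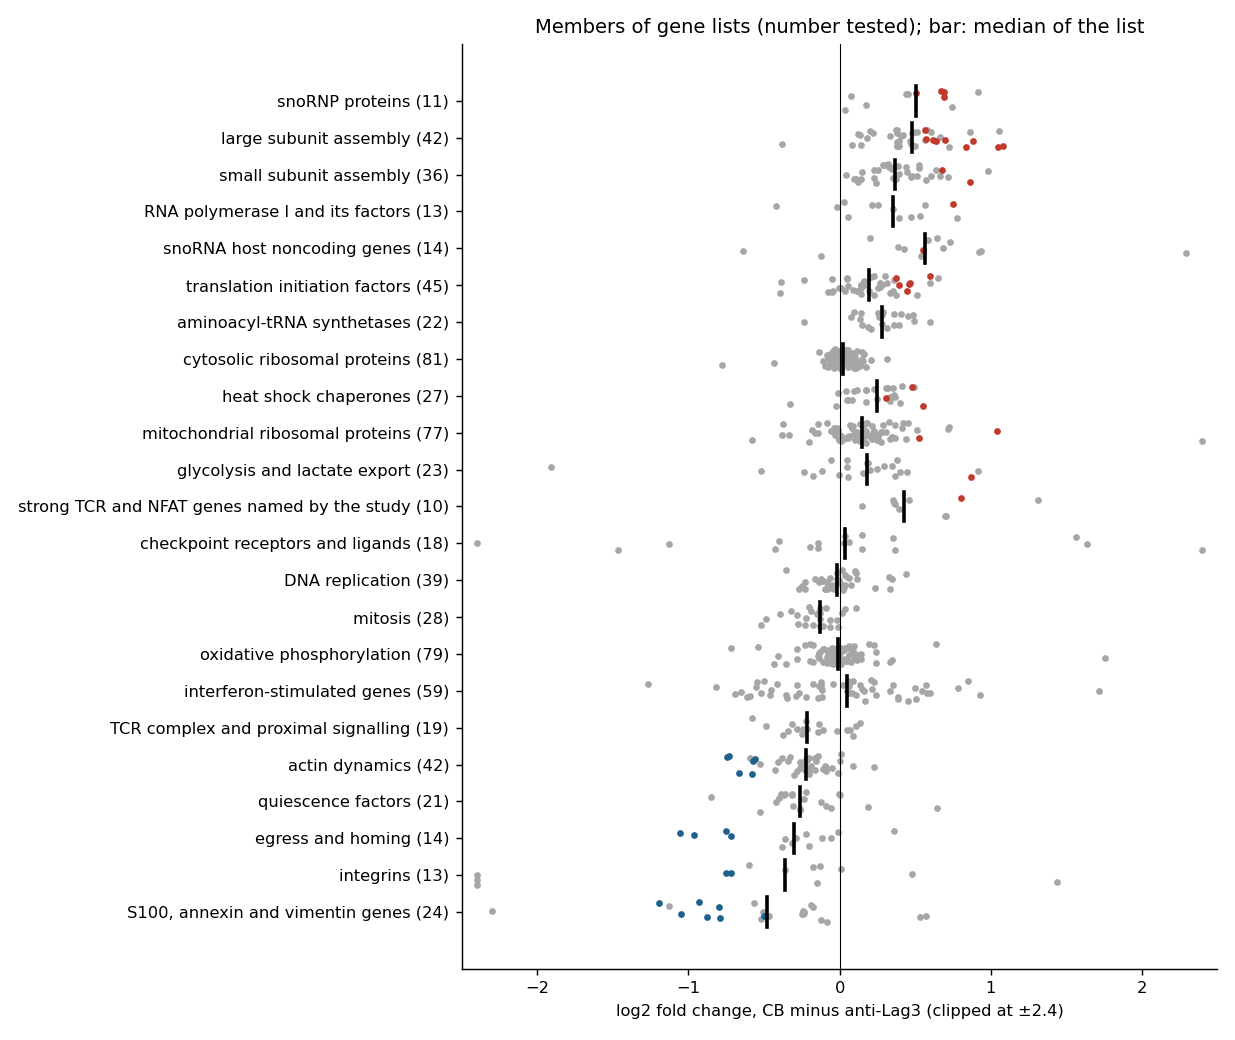
Log2 fold change of CB against anti-Lag3 for the tested members of 23 lists, 1 point per gene, red where called higher, blue where called lower, with a black bar at the median. Red points gather in the lists of ribosome assembly, initiation factors and chaperones, and blue points in those of actin dynamics, egress, integrins and S100, annexin and vimentin genes.

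Receptors and transcription factors of activated T cells gave few calls with large changes. *Ccr6* (chromosome 17 from 8236043 to 8257141), the receptor of the chemokine CCL20, had the highest fold change of the called higher genes. It was at 6.782, 9.999 and 3.099 CPM with anti-Lag3 and at 30.3, 39.1 and 37.8 CPM in CB, a 5.38-fold rise (log2 fold change 2.43, SE 0.43, adjusted p = 0.00319). It was the only called gene of 13 chemokine receptors. *Il12rb2*, the inducible chain of the IL-12 receptor, was at 4.50, 8.81 and 5.93 CPM and at 17.9, 20.4 and 23.4 CPM, a 3.204-fold rise (adjusted p = 0.0234) and the only call among 27 cytokine receptors. It shares exon bases with *Serbp1* on the other strand, which has far more reads and differed by 0.24 (adjusted p = 0.201). *Irf8*, a transcription factor induced by strong TCR signals, was at 88.1, 85.2 and 68.4 CPM and at 172, 104 and 145 CPM (fold change 1.74, adjusted p = 0.00907). *Il12rb2* lost its call in 8 of the other analyses and *Irf8* in 5.

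*Irf8* was the 1 gene that passed of 10 that the study names for strong TCR and NFAT signalling, a list chosen on these samples and so no independent evidence of a direction. All 10 had a fold change above 0 (median 0.43) and in 6 the CB samples were all above the anti-Lag3 samples. *Il21*, the cytokine of follicular helper cells, was at 20.8, 13.4 and 9.35 CPM against 35.4, 38.5 and 34.2 CPM (adjusted p = 0.159). *Tnfrsf9* (4-1BB) was at 38.3, 42.8 and 36.6 CPM against 60.7, 66.3 and 64.5 CPM (0.0738), *Icos* at 484, 466 and 441 CPM against 606, 663 and 522 CPM (0.092) and *Tnfrsf4* (OX40) at 101, 81.6 and 103 CPM against 125, 129 and 138 CPM (0.201). In these 4 genes the 2 groups do not overlap, and none passed the threshold in this fit. *Maf* differed by 0.36, *Il2ra* by 0.70 and *Irf4* by 0.39, with adjusted p-values from 0.317 to 0.513. The genes of the antibody targets were not called: *Lag3* differed by 0.36 (SE 0.55) and *Cd274*, which encodes PD-L1, by 0.04 (SE 0.49). *Pdcd1*, which encodes the PD-L1 receptor PD-1, differed by 0.15 (SE 0.26). *Bcl3*, an NF-kB regulator, differed by 0.22 (adjusted p = 0.727) and *Gata3*, the factor of the Th2 lineage, by -0.49 (adjusted p = 0.222).

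Of the genes that fell, *Ms4a4b* (ENSMUSG00000056290), a membrane protein of the CD20 family that T cells express, had the smallest adjusted p. It was at 804, 825 and 926 CPM with anti-Lag3 and at 452, 464 and 467 CPM in CB, 1.85 times lower (log2 fold change -0.89, SE 0.09, adjusted p = 1.23e-06). *Cd52*, a small glycoprotein on the lymphocyte surface, and *Lgals9*, a galectin, fell by 0.35 and 0.55 on the log2 scale. They were the 3 called of 14 genes listed as MS4A genes, *Cd52* and galectins (21.43%, against 0.304% of all genes). The call of *Lgals9* was lost in 8 of the other analyses, that of *Cd52* in 6 and that of *Ms4a4b* in none. *Rasgrp2* (chromosome 19 from 6399340 to 6415216), which activates the small GTPase RAP1 and through it integrins, was at 298, 362 and 342 CPM with anti-Lag3 and at 139, 190 and 193 CPM in CB (-0.94, SE 0.12, adjusted p = 0.000126). *Rasa3*, which switches RAP1 and RAS off, fell as well, from 108, 122 and 141 CPM to 52.0, 79.1 and 77.8 CPM. These 2 were the calls among 25 genes of RasGRP and ERK feedback (8%, against 0.304% of all genes). The call of *Rasa3* was lost in 4 of the other analyses and that of *Rasgrp2* in none.

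Genes of migration fell together with them. Of 14 tested genes of egress and homing 4 fell (28.57%, against 0.304% of all genes) and none rose. Every CB sample was below every anti-Lag3 sample in 7 (50%, against 7.09% of all genes). *S1pr1* (chromosome 3 from 115710433 to 115715072), the receptor that leads T cells out of lymphoid organs, was at 97.9, 91.0 and 112 CPM with anti-Lag3 and at 55.9, 57.6 and 31.3 CPM in CB, 2.08 times lower (adjusted p = 0.00144). *Itga4* and *Itga6*, integrin chains for VCAM-1 and laminin, were 2 of the 4 called genes of egress and homing. They were also the 2 called of 13 integrin genes (15.38%, against 0.304% of all genes), a list that shares them. *Itga4* was at 118, 90.6 and 112 CPM against 58.7, 64.0 and 67.1 CPM, and *Itga6* at 85.4, 106 and 82.3 CPM against 54.2, 57.5 and 54.3 CPM, so that neither overlapped between the groups. *Klf2*, the factor that maintains *S1pr1*, was at 412, 448 and 433 CPM against 376, 329 and 404 CPM and did not pass (adjusted p = 0.46). It belongs to 21 quiescence factors, of which none was called, 3 had a fold change above 0 and the median was -0.26. In 7 of the 21 (33.33%, against 7.09% of all genes) every CB sample was below every anti-Lag3 sample. *Itga4* and *Itga6* lost their calls in 8 and 6 of the other analyses, and *S1pr1* in none.

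S100, annexin and vimentin genes encode calcium-binding and cytoskeletal proteins that are high in effector and memory T cells. Their list, which also held *Ahnak* and *Emp3*, gave the most calls of any list that fell. These were 7 of 24 (29.2%, against 0.304% of all genes), with a median of -0.48 and none higher. *Vim*, the intermediate filament protein vimentin, was at 671, 682 and 809 CPM with anti-Lag3 and at 368, 497 and 378 CPM in CB (log2 fold change -0.80, SE 0.11). *S100a10* was at 237, 222 and 263 CPM and at 125, 138 and 130 CPM, and *Anxa2*, which pairs with S100A10 at the membrane, at 91.0, 87.7 and 113 CPM and at 39.8, 51.2 and 49.6 CPM. *S100a6* showed 115, 130 and 172 CPM against 47.6, 67.2 and 67.4 CPM, 2.29 times lower. *Ahnak*, a giant scaffold protein that binds them, fell by 0.93, *Emp3* by 0.79 and *Anxa6* by 0.50. *Anxa6* lost its call in 9 of the other analyses, *Emp3* in 7 and the other called genes of this list in none. The summed level of the 24 was 3369.7, 3463.5 and 3881.0 CPM with anti-Lag3 and 2439.7, 2692.3 and 2603.2 CPM in CB. Actin genes gave 6 calls of 42 in the same direction (14.29%, against 0.304% of all genes). In 20 of the 42 (47.62%, against 7.09% of all genes) every CB sample was below every anti-Lag3 sample. The calls were *Rcsd1* (-0.75), whose product binds the actin capping protein CapZ, *Pfn1* (profilin, -0.73), *Arhgap4* (-0.67), *Add3* (-0.58), *Myo1g* (-0.57) and *Bin2* (-0.56). The call of *Myo1g* was lost in 10 of the other analyses, that of *Pfn1* in 9, those of *Arhgap4* and *Bin2* in 7 each. That of *Add3* was lost in 6 and that of *Rcsd1* in none. *Pfn1* was spread within CB, at 172, 211 and 94.9 CPM. The lower sums of the T cell identity and erythroid markers in CB stand beside these falls, and their part in them was not tested.

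Cell cycle and TCR signalling lists held few calls. *Mxd3*, a repressor that competes with MYC for MAX, fell by 0.84 and was the only call of 11 in the MYC network. *Cdkn2d*, an inhibitor of CDK4 and CDK6, and *Cdc25b*, a phosphatase that switches on cyclin-dependent kinases, fell by 0.46 and 0.60 among 23 genes of the cell cycle start. The calls of *Mxd3* and *Cdkn2d* were lost in 9 of the other analyses and that of *Cdc25b* in 6. None of 39 DNA replication genes was called (*Mcm3* 0.03, *Lig1* -0.06, list median -0.02), and none of 28 mitosis genes (*Top2a* -0.23, *Birc5* -0.11, list median -0.13). Only 3 of the mitosis genes had a fold change above 0. In 9 of them (32.14%, against 7.09% of all genes) every CB sample was below every anti-Lag3 sample. None of 19 genes of the TCR complex and its first signals was called, with a median of -0.22 and 5 with a fold change above 0. In 7 (36.84%, against 7.09% of all genes) every CB sample was below every anti-Lag3 sample. *Cd3d* and *Ptprc*, with the highest levels there, differed by -0.14 and 0.05, and *Cd4* was at 286, 222 and 238 CPM against 223, 214 and 202 CPM. The early-response factors of the NR4A and EGR families had no call in 9 and a median of -0.38, with *Nr4a1* at 113, 128 and 202 CPM against 84.7, 111 and 110 CPM. Interferon-stimulated genes (59 tested, median 0.05), oxidative phosphorylation (79, -0.01), MHC class I and immunoproteasome genes (21, 0.04), checkpoint receptors (18, 0.03), cytokines and chemokines (18, 0.16) and T follicular helper genes (18, -0.01) had no call in either direction. Nor had the lists for nucleotide synthesis (median 0.22), one-carbon enzymes (0.20), amino acid transporters (0.14), cholesterol (0.08), NF-kB (-0.08), calcineurin and calcium entry (-0.10), costimulation (0.03), Ly6 antigens (-0.11), STAT and SOCS genes (0.07) and the BCL2 family (-0.03).

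Other called genes were in none of the lists. *Dapl1*, *Scml4* and *Gm14085* were among the 5 with the lowest fold changes, and *Dapl1* was at 145, 113 and 131 CPM with anti-Lag3 and at 58.8, 60.5 and 48.1 CPM in CB. The lowest fitted value belonged to *Gm13840*, with 88, 9 and 103 reads in the anti-Lag3 samples and no read in any CB sample. The anti-Lag3 mean (3.436 CPM) was 23.9 times a floor of 3 reads per CB library (0.1438 CPM). That ratio takes the anti-Lag3 mean as exact. Anti-Lag3 replicate 2 was at only 0.4455 CPM, so the ratio is no lower bound between mice. The call of *Gm13840* was lost in 6 of the other analyses. Genes with the highest fold changes included *Tg* (3.12-fold), *Rbm19* (2.92-fold), an RNA-binding protein of ribosome assembly, and *Fyttd1* (2.74-fold), an RNA export adaptor. *Tg*, the gene of the thyroid hormone precursor thyroglobulin, was at 14.7, 14.9 and 13.3 CPM and at 40.9, 42.4 and 50.8 CPM. It encloses *Sla*, a T cell gene on the other strand with 69447 reads against 5356 for *Tg*, and *Sla* differed by 0.07 and was not called. *Fyttd1*, *Naa25* and *Mxd3* share exon bases with a gene on the other strand, and *Arhgap4* with *Naa10* and *L1cam* on its own. The same holds on the other strand for *Eif5b*, *Eif3j1*, *Itga4*, *Cdc25b*, *Mybbp1a*, *Cd52* and *Kdm7a*. None of these partners was called. *Gpatch4*, *Ddt* and *Naa25* rose by 0.82, 0.69 and 0.86, and *Sidt1*, *Kdm7a* and *Rere* fell by 1.10, 0.98 and 0.96. A further 32 called genes stood outside the rule for naming and are given by direction only, chosen after their values were seen. Higher in CB were *Ncl*, *Ddx21*, *Lyar*, *Nsun2*, *Dnajc2*, *Dnttip2*, *Cebpz*, *Nol8*, *Grwd1*, *Atf4*, *Mtap*, *Mtdh*, *Eea1*, *Cacybp*, *Hmgn1*, *Mphosph8*, *Zranb2* and *2810004N23Rik*. Lower in CB were *St6gal1*, *Dpp4*, *Pecam1*, *Setd1b*, *Faah*, *Stmn1*, *Traf3ip3*, *Klf13*, *Lockd*, *Ripor2*, *Arl5c*, *Prex1*, *Kif21b* and *Cpt1a*.

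Blocking PD-L1 without anti-Lag3 called far fewer genes. Against isotype 5 genes rose and none fell (0.033% of those tested, 1187 at an unadjusted p below 0.05). They were *Ccr6* (log2 fold change 3.05, SE 0.45), the metallothioneins *Mt2* (1.51) and *Mt1* (1.12), small proteins that bind zinc and copper, the inorganic pyrophosphatase *Ppa1* (0.58) and the surface antigen *Ly6a* (0.53). *Ccr6* and *Ppa1* were also called between CB and anti-Lag3, where the call of *Ppa1* was lost in 8 of the other analyses. Without isotype replicate 1 or 2 there were 1 and 0 called genes between anti-PD-L1 and isotype, and without anti-PD-L1 replicate 2 or 3 there were 2 and 11. Of the 59 genes that rose with anti-PD-L1 on top of anti-Lag3, 56 had a fold change above 0 between anti-PD-L1 and isotype (median 0.31), and of the 46 that fell 44 had one below 0 (median -0.33). Over all genes tested the 2 fold changes had the same sign in 56.9%. Their correlation was 0.02 across all genes tested and 0.18 across the 10448 with a mean count of 30 or more, a description across genes, which are not replicates. CB minus anti-PD-L1, which shares the CB samples with CB minus anti-Lag3, was 0.52 for *Nop58* (adjusted p = 0.00814), 0.76 for *Wdr43* (0.00149) and -0.73 for *Ms4a4b* (6.7e-05). For *Ccr6* (0.58, adjusted p = 0.656) and *S1pr1* (-0.62, adjusted p = 0.122) it did not pass. These genes were chosen for their calls between CB and anti-Lag3. With the CB samples used again, their adjusted p-values here are no independent evidence.

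**Figure D5:**
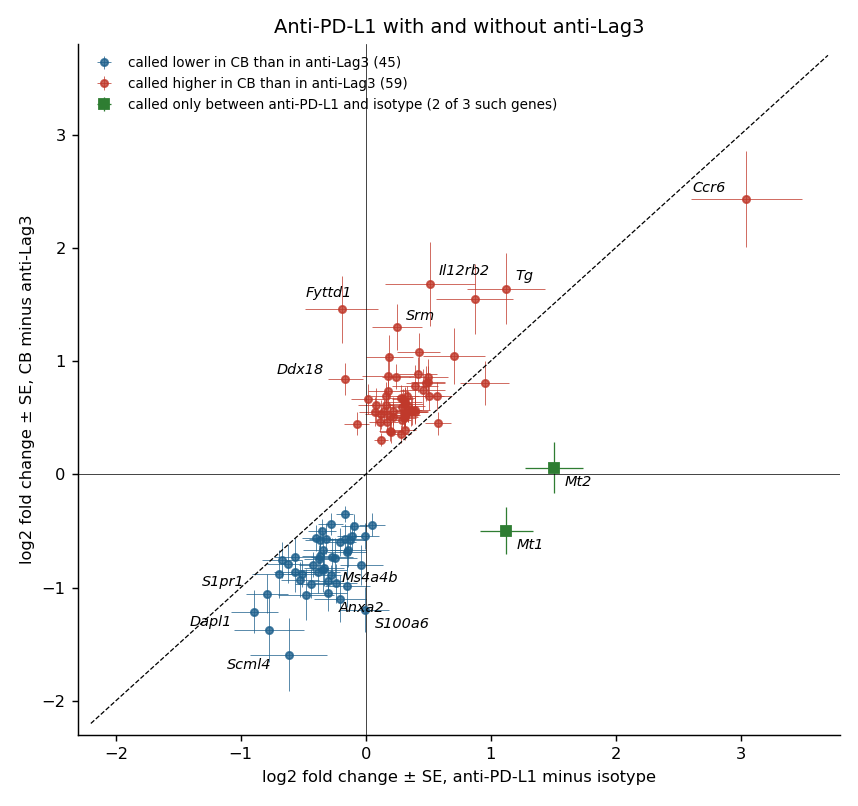
Log2 fold change of CB against anti-Lag3 (y axis) and of anti-PD-L1 against isotype (x axis), each with its SE, for 104 of the 105 called genes (*Gm13840*, without reads in CB, is not drawn) and for *Mt1* and *Mt2*; the dashed line marks equal effects. Most called genes keep the sign on both axes and lie on the side of the larger effect with anti-Lag3, *Ccr6* lies below the line, and *Mt1* and *Mt2* lie near or below 0 on the y axis only.

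Whether the effect of anti-PD-L1 differed with and without anti-Lag3 was tested as the difference of the 2 fold changes (the interaction). In edgeR's quasi-likelihood test no gene passed (0% of those tested), 898 genes (5.93%) had an unadjusted p below 0.05, and DESeq2 called 5, which were *Ms4a4b*, *Ddx18*, *Mt1*, *Gm13840* and *4921525O09Rik*, the last named after its value was seen. Over 24 other analyses *Mt1* was called in 5, *Mt2* and *Ms4a4b* in 3 each, and *Ddx18* and *S100a6* in 2 each. The difference had the sign of the change in CB for 56 of the 59 genes that rose and for all 46 that fell, with medians of 0.32 and -0.44, and these genes had been chosen for the first of the 2 effects. *Mt1* had the smallest unadjusted p. It was at 40.5, 27.3 and 58.3 CPM with isotype and at 87.4, 107 and 80.4 CPM with anti-PD-L1, but at 85.9, 68.7 and 72.8 CPM with anti-Lag3 and at 40.1, 65.5 and 55.6 CPM in CB. Its interaction was -1.62 (SE 0.30, adjusted p = 0.14). *Mt2* showed 21.1, 15.4 and 39.6 CPM, 70.6, 74.5 and 71.8 CPM, 52.6, 46.7 and 46.6 CPM, and 40.3, 54.8 and 56.8 CPM in the same 4 groups, with an interaction of -1.45 (SE 0.32, adjusted p = 0.474). For both metallothioneins the mean was higher with either single antibody than with isotype, and the mean in CB was not the highest. *Ms4a4b* (-0.60, SE 0.12, adjusted p = 0.187) and *Ddx18* (1.00, SE 0.20, adjusted p = 0.187) followed. *Ddx18* was at 69.2, 64.0 and 71.8 CPM with isotype and at 63.6, 56.7 and 63.0 CPM with anti-PD-L1, so that CB alone stood above the other 3 groups. *S100a6* had an interaction of -1.19 (SE 0.27), with 83.3, 110 and 151 CPM with isotype and 86.1, 139 and 118 CPM with anti-PD-L1. *Ccr6* had log2 fold changes of 3.05 without anti-Lag3 and 2.43 with it, and an interaction of -0.62 (SE 0.59) that did not pass. It was at 1.01, 2.22 and 5.45 CPM with isotype and at 18.5, 26.8 and 26.5 CPM with anti-PD-L1.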

How the data were processed

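Messenger RNA of sorted splenic CD4+ T cells was measured by 3′ sequencing in 12 mice. As the methods of the study describe, the authors trimmed reads with Cutadapt 1.18, aligned them with STAR 2.6.1a to GRCm38, and counted uniquely mapped reads per gene with featureCounts 1.6.4; they deposited the raw counts and DESeq2 rlog values, which are on a log2 scale and were used only as an alternative. The annotation release and the strand setting are not given in the sources used here. Libraries were amplified by PCR and no molecular identifiers are described, so counting bounds cover counting error only. Group and replicate number came from the sample labels, and p-values measure the spread between mice.

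The 114 spike-in rows were left out. Genes with at least 30 reads over the 12 samples were fitted in edgeR 4.0.16 (R 4.3.3) with TMM factors and 1 mean per group over all 12 samples (glmQLFit and glmQLFTest, prior count 0.125), and p-values were adjusted by the Benjamini-Hochberg method over all 15138 genes (threshold 0.05). Fold changes are on the log2 scale with the SE of the fit. The 3 main contrasts were CB minus anti-Lag3, anti-PD-L1 minus isotype and their difference. CB minus anti-PD-L1 and anti-Lag3 minus isotype were fitted as well, and the first of these is given for a few genes. Alternatives used DESeq2 1.42.0 (with ashr 2.2.63 where an s-value below 0.005 was asked for as well), limma 3.58.1, other filters, scalings and covariates, and each sample left out. The fit was also tested on simulated counts with known changes in CB. It recovered 16.4% of 1.5-fold, 46.3% of 2-fold and 74.2% of 4-fold changes, and called 7 unchanged genes. A gene that was not called may therefore still differ.

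Symbols and coordinates are from GENCODE M21 (GRCm38), and 403 tested genes had no symbol there. Named genes are the 15 called higher and 15 called lower with the smallest adjusted p, non-overlapping samples and a mean count of at least 30, the 5 called with the highest and the 5 with the lowest fold change, genes that the study names, the called members of each list (the 2 with the highest level where none was called), and the 5 smallest p of the interaction. The lists, the rule and the comparison were chosen with earlier results of these data known. Some genes are not reported here.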

Additional observations from a re-analysis of the deposited data

How the results depend on the processing

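Between CB and anti-Lag3 (105 called) DESeq2 against 0 called 284 genes (145 higher, 139 lower), no filter on low counts 252 (129 and 123) and the term for *Xist* or Y-linked reads 180, while tests against a log2 fold change of 0.2 called 39 in edgeR, 41 in DESeq2 and 35 in DESeq2 with the s-value. DESeq2 size factors (103), filterByExpr (109), limma on rlog values (124), a mean count of at least 30 (116), only the groups compared (139) and leaving out the most abundant gene (107) stayed within 1.5 times. Leaving out 1 sample gave 44 to 135 genes, and 30 of the 105 were called in all 12 such fits. Same-numbered CB and anti-Lag3 samples deviated together with r of 0.115, 0.0823 and 0.0349. These were not all above 0.1, so the numbers were not taken to pair the samples. Between these 2 groups each sample correlated best with its own number, which is a hint from the data. Against anti-PD-L1 and isotype the same held for CB replicates 1 and 3, but not for CB replicate 2. The r of CB replicate 2 was -0.0366 with anti-PD-L1 replicate 2 and -0.0509 with isotype replicate 2. The labels do not say whether the numbers mark the sort batches. With the replicate block 208 genes were called (113 higher, 95 lower), 23 between anti-PD-L1 and isotype and 4 for the interaction, which were *Mt1* and *S100a6* (adjusted p = 0.00145 each), *Ms4a4b* (0.00989) and *Mt2* (0.0158). Of the named genes not called between CB and anti-Lag3, the block called *Aldoa* (0.0179), *Icos* (0.0303), *Tnfrsf9* (0.0432), *Il21* (0.0491) and *Dgka* (0.0106), but not *Tnfrsf4* (0.0928). Between anti-PD-L1 and isotype (5 called) DESeq2 called 56 against 0 and 11 against 0.2, no filter 40, the *Xist* term 9 and edgeR against 0.2 called 2, and leaving out 1 sample gave 0 to 11. For the interaction (0 called) DESeq2 called 5 against 0 and 2 against 0.2, no filter 10 and the *Xist* term 1 (*Mt1*), and leaving out 1 sample gave 0 to 2, the 2 being *Mt1* and *Mt2* without isotype replicate 3. No called gene changed sign in any of the 25 alternatives. The medians of the 4 ribosome assembly lists, of egress and homing, of actin dynamics and of the S100, annexin and vimentin genes kept their sign in all 25. Depth limits genes of a few reads, where fold changes such as that of *Gm13840* are bounds on counting error in CB only.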
